A study of Mus musculus with 7 samples.

Results

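The genes described here encode the inflammasome and gasdermin machinery of macrophages: the sensors Nlrp3, Nlrc4 and Aim2, the adaptor Pycard (ASC), the caspases Casp1, Casp4 and Casp8, the pore-forming gasdermins Gsdmd and Gsdme, and the cytokine Il18. They were chosen by name, 10 of the 55385 genes listed in each count table, and all 10 were matched to an identifier and passed the filter on low counts. The set was proposed because Gsdme was lower in every library of the shChi3l1 group, so the hairpin comparison helped to choose it and is given below as a description.

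RNA was sequenced from tumour-associated macrophages sorted from intracranial QPP7 gliomas grown in C57BL/6 mice. In the shChi3l1 group (3 libraries) the injected glioma cells carried a hairpin against Chi3l1, which encodes a secreted chitinase-like glycoprotein. In the shSC group (4 libraries) they carried the hairpin labelled shSC, against which the other is set. Only the injected cells carried a hairpin, while the host's macrophages had none. The labels used here give no age, sex or time after injection, and do not state whether libraries stem from different mice, so p-values reflect library-to-library spread, part of which may be technical. Chi3l1 itself, listed as Chil1, was scarce in the sorted cells, with 0.799 ± 0.466 CPM (the gene's reads scaled to the size of the library) over the 3 shChi3l1 and 0.800 ± 0.0213 CPM over the 4 shSC libraries (mean ± SD), and because the hairpin acts in the tumour cells this does not check the knockdown.

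An inflammasome is a cytosolic platform. A sensor that meets its trigger gathers Pycard through pyrin or caspase-recruitment domains, and Pycard gathers Casp1, which then activates itself. Active Casp1 cuts pro-IL-1β and pro-IL-18 to their secreted forms and cuts Gsdmd, whose released amino-terminal part forms pores in the plasma membrane and can end in pyroptosis, a lytic form of cell death. Casp4, the mouse gene also called caspase-11, binds cytosolic lipopolysaccharide and cuts Gsdmd directly. Gsdme is a relative of Gsdmd that also forms pores once it is cut. Messenger RNA levels do not show whether any of these proteins was cut or active.

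Reads assigned to genes numbered 19169129 to 36502664 per library. All 10 macrophage markers were detected in every library, with a summed level of 34500 to 51900 CPM in shChi3l1 and 23900 to 36200 CPM in shSC libraries. Lyz2, at 10500 to 34000 CPM, was the most abundant of them, and the sum hides how single markers varied. Csf1r had 249, 2610 and 2360 CPM in shChi3l1 1 to 3, while Aif1 went the other way, with 1540, 690 and 863 CPM. Replicate 1 of each group stood apart in the length of its transcripts: genes with over 5000 bases of merged exons took 12.6% of reads in shChi3l1 1 and 14.8% in shSC 1, and 16.8% to 20.7% in the other 5 libraries. ShChi3l1 3 stood apart in microglia markers (4650 CPM summed over 10 genes, against 1020 to 2380 CPM in the other libraries) and B-cell markers (8720 CPM over 8 genes, against 152 to 1880 CPM). ShSC 4 stood apart in tumour and glial markers (314 CPM over 12 genes, against 51.4 to 133 CPM in the others). In such bulk samples, fewer cells of a type and less RNA per cell cannot be told apart.

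The 4 promoters below, from RefSeq on GRCm38.p6, belong to the genes on which the following results turn: Gsdme, which separated the hairpin groups, Nlrp3, which varied more than Nlrc4 and Aim2, and Casp1 and Casp4, adjacent genes on the plus strand of chromosome 9. Each line gives 250 bases before the RefSeq gene start, 5′ to 3′ on the gene's strand, and capitals mark matches on either strand to GGG and CC separated by any 5 bases (NF-kB-like) or GAGGAA (the core bound by PU.1, a myeloid transcription factor). Some NF-kB-like matches overlap each other.
Gsdme, chr6:50261770-50262019, minus strand: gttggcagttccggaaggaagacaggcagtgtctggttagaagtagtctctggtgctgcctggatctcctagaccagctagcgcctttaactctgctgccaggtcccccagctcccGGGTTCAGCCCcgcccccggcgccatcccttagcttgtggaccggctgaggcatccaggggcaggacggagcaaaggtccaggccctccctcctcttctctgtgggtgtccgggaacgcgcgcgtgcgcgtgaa
Nlrp3, chr11:59542436-59542685, plus strand: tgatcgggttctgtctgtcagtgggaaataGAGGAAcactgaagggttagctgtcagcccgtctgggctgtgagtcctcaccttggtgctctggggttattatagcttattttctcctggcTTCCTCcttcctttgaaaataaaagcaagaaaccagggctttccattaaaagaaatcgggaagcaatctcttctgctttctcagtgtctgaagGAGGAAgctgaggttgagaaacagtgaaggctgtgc
Casp1, chr9:5298267-5298516, plus strand: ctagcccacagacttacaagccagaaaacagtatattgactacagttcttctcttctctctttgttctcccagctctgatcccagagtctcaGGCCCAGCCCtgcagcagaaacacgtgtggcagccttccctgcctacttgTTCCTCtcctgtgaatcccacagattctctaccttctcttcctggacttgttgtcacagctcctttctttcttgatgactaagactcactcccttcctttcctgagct
Casp4, chr9:5308599-5308848, plus strand: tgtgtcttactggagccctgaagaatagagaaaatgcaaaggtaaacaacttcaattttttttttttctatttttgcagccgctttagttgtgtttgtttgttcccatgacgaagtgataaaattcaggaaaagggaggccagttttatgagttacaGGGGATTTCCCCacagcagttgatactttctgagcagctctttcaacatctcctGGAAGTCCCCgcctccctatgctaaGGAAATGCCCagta
The Gsdme window was the richest in G and C of the 11 windows found for 9 of the 10 genes, at 64.0% and with 15 CG dinucleotides. The other windows held 35.6% to 49.6% and 1 to 5, and the medians over all 32807 mouse windows were 52.4% and 6. The Casp4 window held NF-kB-like matches in 3 separate stretches, a pattern present at least in 1 place in 45.8% of all windows. The Nlrp3 window printed here held GAGGAA at 3 places, which 23.3% of windows hold at least in 1. The other Nlrp3 window, chr11:59541319-59541568, held GAGGAA at 0 places and had 1 NF-kB-like match. That window ends at the start of the Nlrp3 locus given below, while the printed window lies inside the locus. The printed Gsdme window likewise lies inside the Gsdme locus given below. Its base content therefore does not describe the sequence before the annotated 5′ end of that locus. Neither TGANTCA (AP-1-like, in 6.75% of windows) nor GAAA and GAAA separated by any 2 bases (interferon response-like, in 2.97%) was in any window of the 9 genes. A match is a run of letters and not a shown binding site. Gsdmd had no entry.

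Gsdme was the member that lay lower in macrophages from shChi3l1 tumours. Gsdme (ENSMUSG00000029821.15, mm10 chromosome 6, 50188888 to 50263862, minus strand) had 3.58, 4.43 and 3.66 CPM in shChi3l1 1, 2 and 3, and 7.27, 5.45, 9.76 and 9.37 CPM in shSC 1, 2, 3 and 4. The highest shChi3l1 library lay below the lowest shSC library, as in 194 of the 15448 genes tested (1.26%), and replicate 2 of each group came closest. These levels rest on 84, 149 and 90 reads in shChi3l1 and on 193 to 286 reads in shSC libraries. The levels averaged 3.89 ± 0.470 CPM over the 3 shChi3l1 and 7.96 ± 2.00 CPM over the 4 shSC libraries (mean ± SD), giving a log2 fold change of -1.03 (SE 0.38). Since this direction is why the set was proposed, no test is read from it. Over 19 alternative settings the log2 fold change lay between -1.24 and -0.91, and it was -1.06 without replicate 1 of both groups. Its sign could not turn by leaving out a library, since the groups do not overlap, so this range is no sign of stability. Between same-numbered libraries, whose pairing is uncertain as given with the processing, Gsdme differed by -1.02, -0.30 and -1.41 on the log2 scale.

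Markers of other cells also lay at different mean levels in the groups, and their part in the Gsdme result was not tested. All 10 microglia markers had a positive log2 fold change (median 1.69), and of 11 tested tumour and glial markers 3 were higher and 8 lower, with a median of -1.07. None of either list was at 0 in all libraries, and 0 passed the adjusted threshold. The summed microglia level was 1290, 2380 and 4650 CPM in shChi3l1 1 to 3 and 1780, 1460, 1300 and 1020 CPM in shSC 1 to 4. The groups overlapped in this sum, with shChi3l1 1 below shSC 1, 2 and 3. The summed tumour and glial level was 95.8, 97.4 and 133 CPM in shChi3l1 libraries and 51.4, 122, 98.4 and 314 CPM in shSC 1 to 4. ShSC 4 had the highest sum and shSC 1 the lowest, and the groups overlapped. Without shSC 4, the library richest in these markers, the log2 fold change of Gsdme was -0.95, and without shSC 4 and shChi3l1 3 it was -0.91. The 3 genes whose profile over the 7 libraries was nearest to that of Gsdme, by root-mean-square difference in gene-centred log2 CPM among 8541 genes, were Kif22 (0.284), Dsn1 (0.285) and Ruvbl1 (0.292), against 0.563 for a flat profile. Kif22 encodes a mitotic chromosome-binding kinesin, Dsn1 a kinetochore protein and Ruvbl1 an ATPase of chromatin-remodelling complexes.

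**Figure D1:**
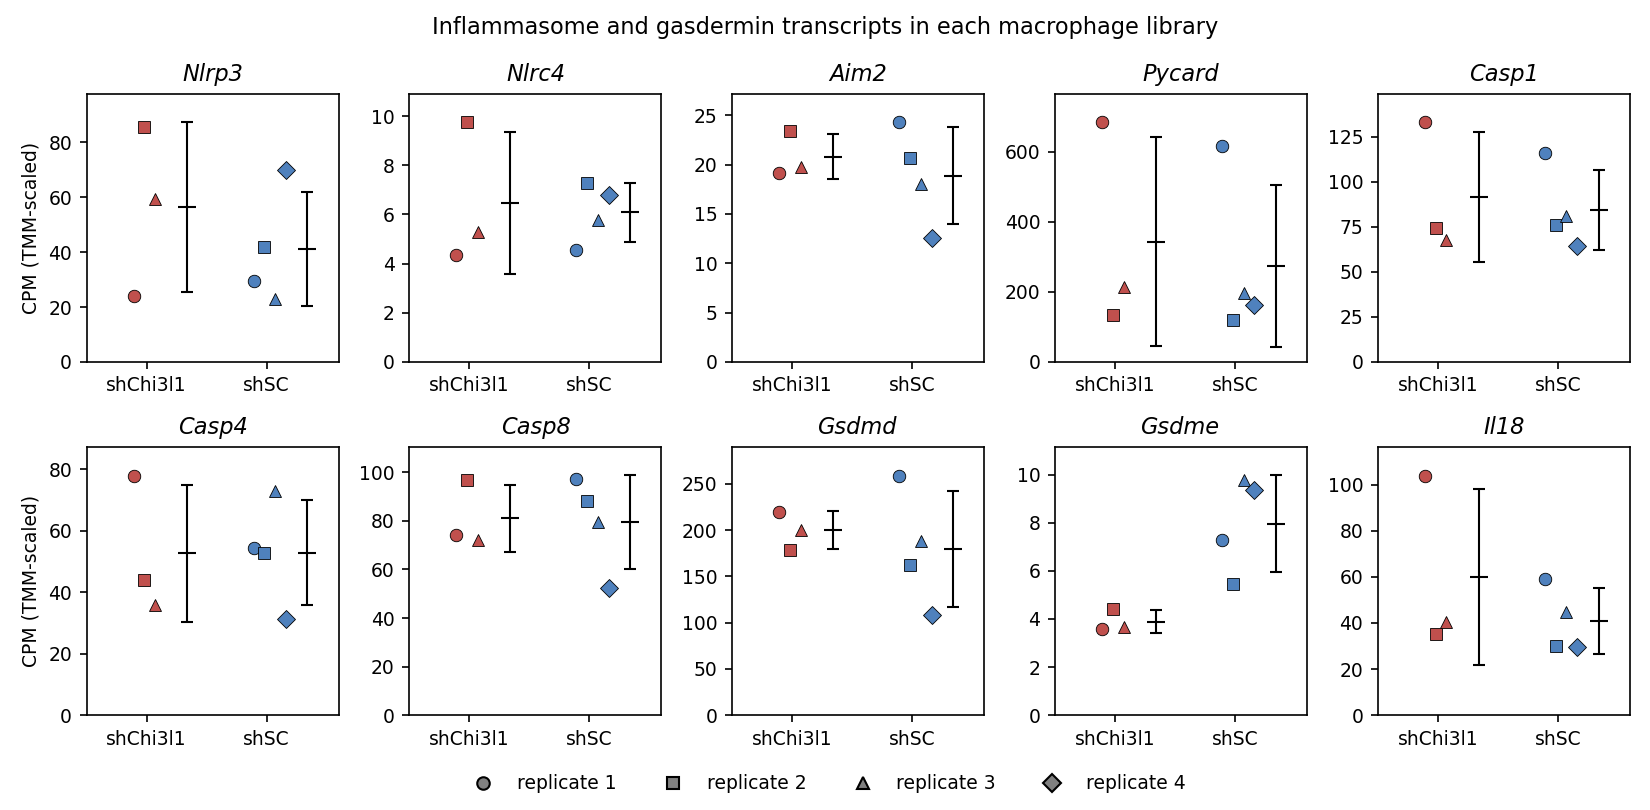
TMM-scaled CPM of each of the 10 genes (linear axes from 0) in the 3 shChi3l1 libraries (red) and the 4 shSC libraries (blue), with the marker shape giving the replicate and the mean ± SD beside the points. The groups do not overlap for Gsdme, at 3.58 to 4.43 CPM in shChi3l1 and 5.45 to 9.76 CPM in shSC libraries, while Pycard is highest in replicate 1 of both groups.

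No member passed the test across all genes. Of the 15448 genes tested by edgeR's quasi-likelihood test, 0 passed an adjusted p of 0.05 (0% called, smallest adjusted p 0.9998, 229 genes, 1.48%, at an unadjusted p under 0.05), and so 0 of the 10 members. The groups did not overlap, with shChi3l1 below shSC, in 1 of the 10 members (Gsdme), beside the 1.26% given above. With shChi3l1 above shSC they did not overlap in 0 members and in 191 genes, 1.24%. Because the set was proposed from this contrast, nothing is read from these shares. The fit with all libraries gave 8 members with a positive and 2 with a negative log2 fold change, with a median of 0.13 beside 0.07 over all tested genes. That count was not stable: 3 to 9 members were positive over the 19 alternatives, 5 without shChi3l1 1, 5 without shSC 4 and 4 with the replicate number as a block. Without shChi3l1 1 and shSC 1 together it was 7. Nlrp3 was positive in all 19.

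**Figure D2:**
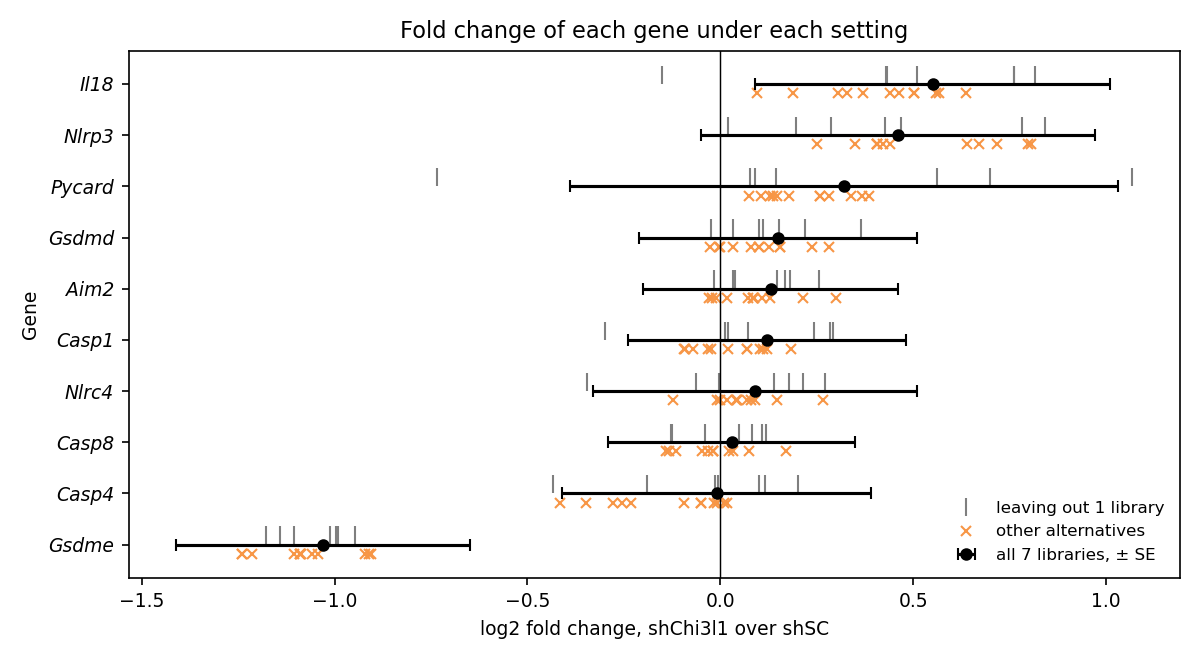
Log2 fold change of shChi3l1 over shSC for each gene, with all 7 libraries (black, ± SE), leaving out 1 library (grey ticks) and under the other alternatives (orange crosses). Gsdme lies between -1.24 and -0.91 in every alternative, Nlrp3 stays above 0, and the signs of the other 8 genes depend on the setting.

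Gsdmd, which encodes the pore former of inflammasome signalling, had the higher level per kilobase of the 2 gasdermins, as given with the order of levels. Gsdmd (ENSMUSG00000022575.5, chromosome 15, 75862327 to 75867408, plus strand) had 220, 179 and 200 CPM in shChi3l1 libraries and 259, 162, 188 and 108 CPM in shSC 1 to 4. All shChi3l1 libraries lay inside the shSC range, and the log2 fold change was 0.15 (SE 0.36). For each Gsdme read there were 61.6, 40.4 and 54.5 Gsdmd reads in shChi3l1 libraries and 35.6, 29.8, 19.3 and 11.5 in shSC 1 to 4, with no correction for length. This ratio carries the Gsdme difference, which chose the set, and is a description. Of the 13 genes listed as other gasdermins and membrane rupture or repair factors, 8 did not pass the filter on low counts, namely Gsdma, Gsdma2, Gsdma3, Gsdmc, Gsdmc2, Gsdmc3, Gsdmc4 and Pjvk. The highest level among them was 0.516 CPM, for Gsdmc in shSC 4, and Gsdma3 and Gsdmc3 had 0 reads in all 7 libraries, where 3 counts, the limit that a count of 0 allows, correspond to 0.0847 to 0.129 CPM per library (counting error only).

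Ninj1, which drives rupture of the plasma membrane after gasdermin pores have formed, had the highest CPM of the 5 tested genes of that list, with 817 ± 320 CPM over the 3 shChi3l1 and 546 ± 91.4 CPM over the 4 shSC libraries (mean ± SD), and its log2 fold change was 0.58 (SE 0.37). Chmp3, a subunit of the ESCRT-III complex that repairs membranes, had 92.4 ± 18.3 CPM and 88.7 ± 11.3 CPM in the same order. Vps4b, which disassembles that complex, had 57.3 ± 24.8 CPM over the 3 shChi3l1 and 66.2 ± 10.1 CPM over the 4 shSC libraries (mean ± SD). Of the 5 tested genes 3 were higher and 2 lower, 0 passed the adjusted threshold, and the median log2 fold change was 0.03.

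Nlrp3, the sensor of ion efflux and membrane damage, varied more between libraries than Nlrc4 and Aim2. Nlrp3 (ENSMUSG00000032691.14, chromosome 11, 59541568 to 59566956, plus strand) had 24.0, 85.7 and 59.3 CPM in shChi3l1 libraries and 29.4, 42.0, 22.8 and 69.8 CPM in shSC 1 to 4. The groups overlapped: shChi3l1 1 lay near the low end of shSC, and shChi3l1 2 lay above every other library. The levels averaged 56.4 ± 30.9 CPM over the 3 shChi3l1 and 41.0 ± 20.8 CPM over the 4 shSC libraries (mean ± SD), and the log2 fold change was 0.46 (SE 0.51). It was positive in all 19 alternatives but close to 0 in some of them, at 0.02 to 0.84 when 1 library was left out. Replicate 1 was lower in shChi3l1, by -0.29 on the log2 scale, and replicates 2 and 3 were higher, by 1.03 and 1.38. The libraries lowest in Nlrp3, shSC 3, shChi3l1 1 and shSC 1, were also the lowest in reads from long genes (16.8%, 12.6% and 14.8%). The part of transcript length in the spread of Nlrp3 was not tested. The profile nearest to that of Nlrp3 over the 7 libraries was that of Zc3h12a (root-mean-square difference 0.155, against 0.710 for a flat profile), which encodes the RNase regnase-1 that degrades inflammatory transcripts, followed by Kctd12 (0.191) and Wdfy3 (0.196).

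Nlrc4 and Aim2 lay below Nlrp3 in level per kilobase of merged exons, as tested with the order of levels, where the dependence on length is also given. Nlrc4 (ENSMUSG00000039193.9, chromosome 17, 74425438 to 74459142, minus strand), which with the Naip proteins senses bacterial flagellin and secretion systems, had 4.34, 9.75 and 5.28 CPM in shChi3l1 libraries and 4.54, 7.26, 5.77 and 6.79 CPM in shSC 1 to 4. ShChi3l1 2 was again the highest of all, and the other shChi3l1 libraries lay at the low end of shSC. Aim2 (ENSMUSG00000037860.15, chromosome 1, 173350879 to 173466040, plus strand), the sensor of cytosolic double-stranded DNA, had 19.2, 23.4 and 19.8 CPM in shChi3l1 libraries and 24.3, 20.7, 18 and 12.6 CPM in shSC 1 to 4. Its shChi3l1 values lay inside the shSC range. Log2 fold changes were 0.09 (SE 0.42) for Nlrc4 and 0.13 (SE 0.33) for Aim2, and the sign turned in 5 of the 19 alternatives for Nlrc4 and in 4 for Aim2.

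Of 16 other sensors and co-receptors, 13 were tested, 10 of them higher and 3 lower (median log2 fold change 0.22), and 0 passed the adjusted threshold. Zbp1, a sensor of Z-form nucleic acids, had the highest CPM, at 362 ± 152 CPM over the 3 shChi3l1 and 277 ± 137 CPM over the 4 shSC libraries (mean ± SD). Ifi204, a DNA sensor of a family of similar genes between which reads can be misassigned, had 125 ± 79.0 CPM and 118 ± 44.2 CPM in the same order. Nod1, a sensor of bacterial peptidoglycan, had 41.9 ± 25.0 CPM over the 3 shChi3l1 and 39.5 ± 18 CPM over the 4 shSC libraries (mean ± SD). Nlrp6, Nlrp12 and Naip1 did not pass the filter. Of 17 regulators of assembly 14 were higher and 3 lower, with a median of 0.19 and 0 past the threshold. Gbp2, an interferon-induced guanylate-binding protein gene, led them at 597 ± 360 CPM over the 3 shChi3l1 and 479 ± 165 CPM over the 4 shSC libraries (mean ± SD). Irf1, a transcription factor gene of the interferon response, had 530 ± 114 and 485 ± 145 CPM in the same order.

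Pycard, the adaptor, was highest in replicate 1 of each group, and the hairpin groups overlapped. Pycard (ENSMUSG00000030793.4, chromosome 7, 127989708 to 127993867, minus strand) had 685, 133 and 213 CPM in shChi3l1 libraries and 618, 119, 198 and 163 CPM in shSC 1 to 4. The 2 libraries lowest in reads from long genes were the highest in Pycard, and the part of transcript length in this was not tested. The log2 fold change of 0.32 (SE 0.71) was -0.74 without shChi3l1 1, 1.07 without shSC 1 and 0.07 (SE 0.33) without both. Between same-numbered libraries, whose pairing is uncertain, shChi3l1 was higher by 0.15, 0.16 and 0.10 on the log2 scale. Another gene on the opposite strand overlaps 12.8% of the exon bases of Pycard, and the library preparation does not mark strand, so their reads cannot be told apart there. The exons of the other 9 members overlap no other gene.

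Casp1, the caspase that inflammasomes activate, was also highest in replicate 1 of each group. Casp1 (ENSMUSG00000025888.6, chromosome 9, 5298508 to 5307290, plus strand) had 133, 74.3 and 67.5 CPM in shChi3l1 libraries and 116, 75.9, 81.2 and 64.5 CPM in shSC 1 to 4. The groups overlapped over nearly their whole range, with a log2 fold change of 0.12 (SE 0.36), which was -0.30 without shChi3l1 1 and -0.09 without replicate 1 of both groups. The 3 genes nearest to it in profile were Arpc3, Atg5 and Ube2d3, with root-mean-square differences of 0.047, 0.063 and 0.069 against 0.371 for a flat profile. Arpc3 encodes an actin-nucleating subunit, Atg5 an autophagy protein and Ube2d3 a ubiquitin-conjugating enzyme. All 3 were highest in shChi3l1 1 and shSC 1, which follows from their choice by likeness to the Casp1 profile.

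Casp4 (ENSMUSG00000033538.13, chromosome 9, 5308828 to 5336783, plus strand), the lipopolysaccharide-binding caspase, had 77.9, 43.9 and 35.9 CPM in shChi3l1 libraries and 54.4, 52.7, 72.9 and 31.1 CPM in shSC 1 to 4. Its means were nearly equal, at 52.6 ± 22.3 CPM over the 3 shChi3l1 and 52.8 ± 17.1 CPM over the 4 shSC libraries (mean ± SD), with a log2 fold change of -0.01 (SE 0.40). Same-numbered libraries differed in opposite directions, by 0.52, -0.26 and -1.02. The nearest profiles were those of AC114539.1 (0.124), BC064078 (0.140) and Cdk10 (0.144), against 0.456 for a flat profile. Casp8 (ENSMUSG00000026029.14, chromosome 1, 58795374 to 58847503, plus strand), the initiator caspase of death receptors that can also join Pycard, had 74.2, 97.0 and 72.0 CPM in shChi3l1 libraries and 97.3, 88.2, 79.6 and 52.5 CPM in shSC 1 to 4. It was the steadiest member, with a highest level 1.85 times the lowest over the 7 libraries and a log2 fold change of 0.03 (SE 0.32).

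Of the 6 other caspases 5 were higher and 1 lower (median log2 fold change 0.09), and 0 passed the threshold. Casp6, an executioner caspase of apoptosis, had 24.7 ± 11.5 CPM over the 3 shChi3l1 and 24.0 ± 8.18 CPM over the 4 shSC libraries (mean ± SD). Casp9, the initiator of mitochondrial apoptosis, had 22.1 ± 6.35 and 20.7 ± 7.86 CPM in the same order. Of 11 necroptosis and death receptor partners 8 were higher and 3 lower, with a median of 0.26 and 0 past the threshold. Tnfrsf1b, a receptor of TNF, had 336 ± 239 CPM over the 3 shChi3l1 and 226 ± 86.1 CPM over the 4 shSC libraries (mean ± SD). The other TNF receptor gene, Tnfrsf1a, had 216 ± 76.8 and 175 ± 18.8 CPM in the same order, and Birc3, an inhibitor of apoptosis, 122 ± 39.2 and 102 ± 11.3 CPM.

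Il18 (ENSMUSG00000039217.13, chromosome 9, 50554827 to 50581840, plus strand), the inflammasome-processed cytokine, had 104, 35.3 and 40.5 CPM in shChi3l1 libraries and 59.3, 29.9, 44.6 and 29.5 CPM in shSC 1 to 4. ShChi3l1 1 lay above all other libraries, and the other shChi3l1 values lay inside the shSC range. Its log2 fold change of 0.55 (SE 0.46), the highest of the 10 members, was -0.15 without shChi3l1 1 and 0.10 (SE 0.28) without replicate 1 of both groups. Il1b, the other cytokine that Casp1 processes, had 4740 ± 2170 CPM over the 3 shChi3l1 and 4250 ± 1260 CPM over the 4 shSC libraries (mean ± SD). For each Il18 read there were 39.7 to 202 Il1b reads in shChi3l1 and 67.1 to 206 in shSC libraries, ranges that overlap and that are not corrected for length. Il1a, a cytokine that acts at the same receptor, had 2010 ± 1110 CPM over the 3 shChi3l1 and 1790 ± 998 CPM over the 4 shSC libraries (mean ± SD), and Il1rn, its antagonist, 953 ± 766 and 960 ± 422 CPM in the same order. Of the 13 genes of the IL-1 family list 6 were higher and 7 lower (median log2 fold change -0.01), and 0 passed the threshold. Il18bp, which encodes a secreted protein that traps IL-18 and was named after its values were seen, had 8.45 to 43.4 reads for each Il18 read in shChi3l1 and 9.81 to 31.0 in shSC libraries, also without a correction for length.

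**Figure D3:**
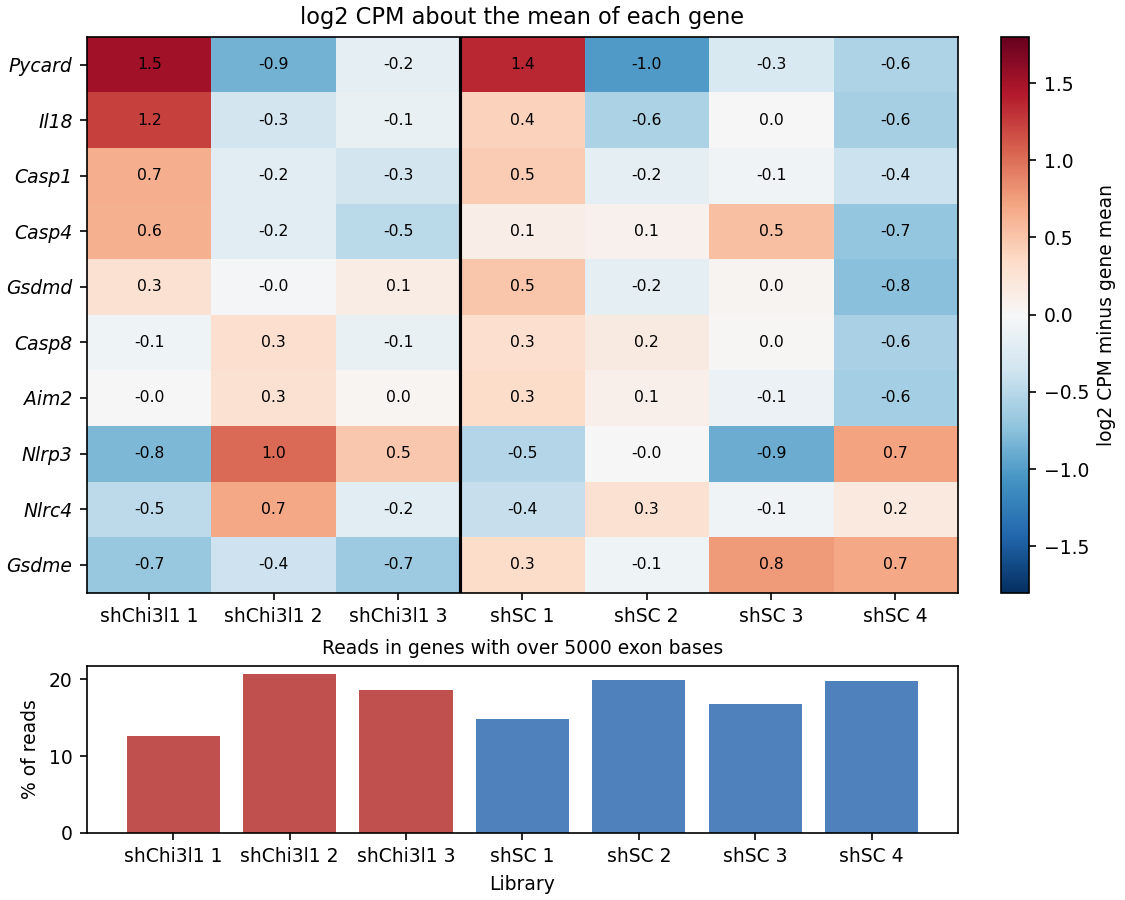
Upper panel, log2 CPM of each gene minus its mean over the 7 libraries (colour and printed value), shChi3l1 libraries left of the line and shSC libraries right of it. Lower panel, percent of reads in genes with over 5000 merged exon bases, 12.6% in shChi3l1 1 and 14.8% in shSC 1, the libraries in which Pycard and Casp1 are highest.

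The order of the members by level was not used to choose them. By mean log2 CPM per kilobase of merged exon length over all 7 libraries, it ran from Gsdmd through Pycard, Il18, Casp8, Casp1, Casp4, Nlrp3, Aim2 and Nlrc4 to Gsdme. Gsdmd had 84.0 ± 8.68 CPM per kilobase over the 3 shChi3l1 and 75.4 ± 26.4 over the 4 shSC libraries (mean ± SD), above 95.1% of tested genes on that scale. Casp1 had 29.3 ± 11.6 and 26.9 ± 7.11 in the same order and lay above 88.6%. Nlrp3 had 13.9 ± 7.63 in shChi3l1 and 10.1 ± 5.13 in shSC libraries, above 78.6%. Nlrc4, at 1.35 ± 0.600 and 1.27 ± 0.251 in the same order, lay above 44.0%, and Gsdme, at 0.307 ± 0.0366 and 0.626 ± 0.157, above 25.9%. Aim2, Nlrc4 and Gsdme held the last 3 places in each of the 7 libraries, in that order.

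Neighbours in the order were compared within libraries with an exact two-sided sign-flip permutation test, adjusted over the 9 pairs. The higher member led in 7 of 7 libraries for 5 pairs, each with a permutation p of 0.0156, the smallest that 7 libraries allow, and an adjusted p of 0.0281. These were Pycard over Il18 (mean log2 difference 0.55 ± 0.51, SD), Casp1 over Casp4 (1.00 ± 0.33), Nlrp3 over Aim2 (0.91 ± 0.87), Aim2 over Nlrc4 (2.14 ± 0.52) and Nlrc4 over Gsdme (1.47 ± 0.71). Il18 over Casp8 missed the threshold after adjustment (0.67 ± 0.67, higher in 6 of 7 libraries, exact permutation p = 0.0469, adjusted 0.0703). Gsdmd and Pycard (0.28 ± 0.81, adjusted exact permutation p = 0.422), Casp8 and Casp1 (0.01 ± 0.41, adjusted 0.953) and Casp4 and Nlrp3 (0.38 ± 1.22, adjusted 0.51) did not differ beyond their spread. The count of 5 pairs was 0 without shChi3l1 1, without shSC 1 or without shSC 4, and 6 without any 1 of the other 4 libraries. With 6 libraries the smallest exact permutation p is 0.0312, which passes adjustment only if 6 of the 9 pairs reach it. In those 3 cases 5 pairs had an unadjusted p under 0.05 and the smallest adjusted p was 0.0563, so a count of 0 there does not show a lost order. The test takes the 7 libraries as independent. With same-numbered libraries averaged there are 4 units, the smallest exact permutation p is 0.125, and 0 pairs could pass.

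Part of this order depended on the length used. The merged exons of Gsdme span 12742 bases, while its longest protein-coding transcript in GENCODE has 4383, and those of Casp1 span 3136 against 1497. Per kilobase of the longest coding transcript, chosen after the data had been seen, Gsdme and Nlrc4 changed places and were level (0.04 ± 0.71 on the log2 scale, Gsdme higher in 3 of 7 libraries). Casp1 then stood above Il18, next to Pycard, and 0 of the 9 pairs passed adjustment (smallest adjusted p 0.0703). On that scale Aim2 led Gsdme in 7 of 7 libraries, by 2.37 ± 0.80. Nlrp3 led Aim2 by 0.62 ± 0.87 and in only 4 of 7 libraries (exact permutation p = 0.141, adjusted 0.253). Casp4 moved above Casp8, by 0.20 ± 0.45 and in 5 of 7 libraries. Casp1 and Casp4, which were no longer neighbours, have nearly equal coding transcript lengths of 1497 and 1435 bases, and reads of Casp1 were 1.69 to 1.88 times those of Casp4 in shChi3l1 and 1.11 to 2.13 times in shSC libraries.

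**Figure D4:**
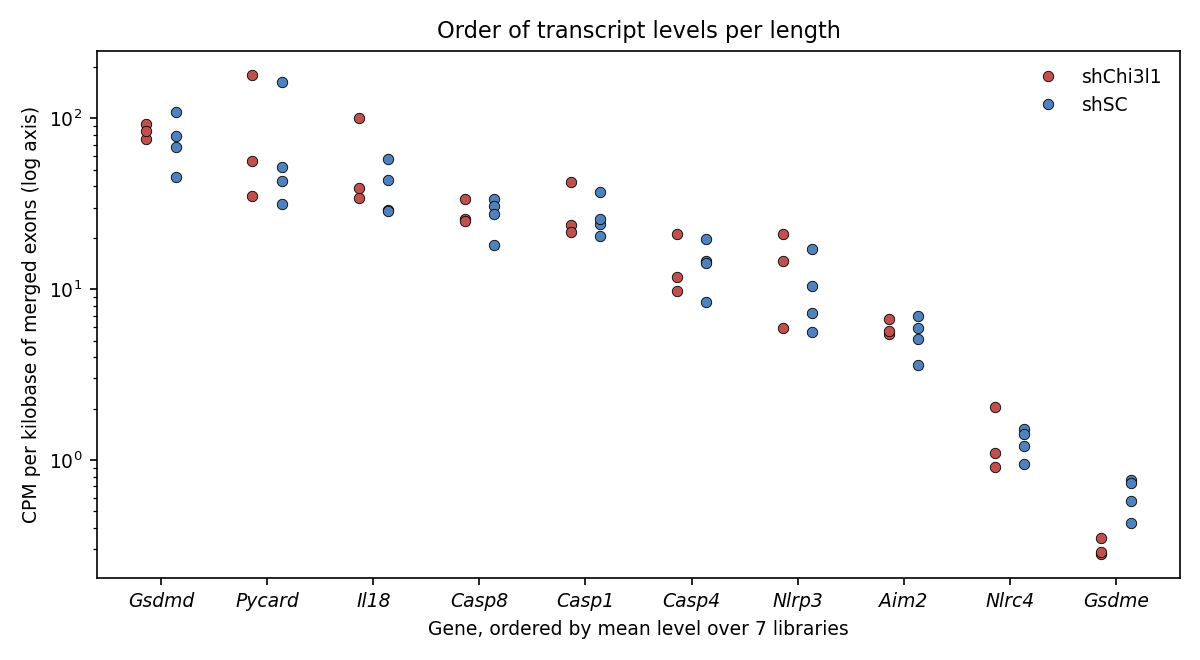
CPM per kilobase of merged exon length (log axis) of each gene in the 3 shChi3l1 libraries (red, left) and the 4 shSC libraries (blue, right), ordered by the mean over all 7. Gsdmd leads and Gsdme is last, and the place of Gsdme relative to Nlrc4 reverses when the longest coding transcript is used as the length.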

How the data were processed

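RNA from sorted macrophages (10 ng) was turned into cDNA with a Smart-seq low-input kit and 1 ng of cDNA into Nextera XT libraries, per the labels' protocols. The deposited values are raw counts per gene; Trim Galore, HISAT2, featureCounts and mm10 are named in the submitters' processing notes, with versions not given in the sources used here. The other columns of the authors' deposited tables give gene coordinates, strand and length per the file headers. Of 55385 identifiers 55144 were matched to GENCODE M21 names. The 7 libraries form the groups shChi3l1 (n = 3) and shSC (n = 4).

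CPM were scaled by TMM factors. Genes passing filterByExpr (minimum count 10) were tested with edgeR 4.0.16 in R 4.3.3 by the robust quasi-likelihood test with Benjamini-Hochberg adjustment over 15448 genes, after a check on simulated counts. Alternatives were other scalings and filters, a replicate block, a length offset, DESeq2 1.42.0, limma 3.58.1 (voom) and left-out libraries. Leaving out replicate 1 of both groups, the transcript length, and averaging same-numbered libraries were added after seeing the data. The members and all gene lists were chosen with earlier results of these data known. Named genes were all members, the 3 most abundant genes of each pathway list, and the 3 nearest profiles to Gsdme, Nlrp3, Casp1 and Casp4. Some genes that this rule names are not reported here. The labels call replicates 1 to 3 of the groups paired in a figure, and the same-numbered libraries deviated together from their group means (correlations 0.306, 0.26 and 0.188). All exceed the limit of 0.1 by which numbers were taken to pair libraries, but shChi3l1 3 with shSC 2 (0.322) and shChi3l1 2 with shSC 4 (0.2) do so too, so the pairing is uncertain. Libraries of the same group differed by more than sampling noise. Levels were ordered by log2 of CPM per kilobase, with 0.5 counts added, and neighbours tested by exact sign-flip permutation. Intervals of counts cover counting error only.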

Additional observations from a re-analysis of the deposited data

Results flagged for a closer look

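The Pycard level of 618 CPM in shSC 1 lay far from the 119 to 198 CPM of the other 3 shSC libraries. Its gap to the nearest library was 0.841 of the range of the group, above Dixon's 95% critical value for 4 libraries. Levels of all 10 genes were examined in this way in the shSC group, and chance alone flags about 1 in 20 groups.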

How the results depend on the processing

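Of the member values recomputed under 19 alternatives, 37 changed sign and 153 did not. Nlrp3 was positive in all 19, and the sign of Gsdme was fixed by groups that do not overlap when libraries were left out. With DESeq2 or upper-quartile factors, or the DESeq2 Wald test, Casp8 was -0.02 (log2 fold change), and with no filter -0.031. Library totals with no factors moved the median of all genes to -0.13, and Nlrc4 was then -0.12, Aim2 -0.03, Casp1 -0.092, Casp8 -0.14 and Gsdmd -0.003. The length offset gave Casp4 0.009, and voom gave Casp1 -0.072. The replicate block changed no call (0 genes called) and gave Aim2 -0.011, Casp1 -0.033, Casp8 -0.13 and Gsdmd -0.002; the replicate block with the length offset gave Nlrc4 -0.009, Aim2 -0.022, Casp1 -0.024 and Casp8 -0.115. Without shChi3l1 3 and shSC 4 Casp4 was 0.017, Casp8 -0.048 and Gsdmd -0.027, and without shChi3l1 1 and shSC 1 Casp1 was -0.094. Leaving out 1 library gave -0.017 to 0.26 for Aim2, -0.30 to 0.29 for Casp1, -0.44 to 0.20 for Casp4, -0.13 to 0.12 for Casp8, -0.024 to 0.36 for Gsdmd, -0.15 to 0.82 for Il18, -0.35 to 0.27 for Nlrc4 and -0.74 to 1.07 for Pycard. The cause of these sign changes was not tested. The alternatives called 0 genes except the DESeq2 Wald test, which called 1 (Igkv4-58). Of the 9 neighbouring pairs in the order of level, 3 differed with no division by length, 0 without shChi3l1 3 and shSC 4, 0 without shChi3l1 1 and shSC 1, 0 per kilobase of the longest coding transcript, 0 with same-numbered libraries averaged, and 0 to 6 with 1 library left out. With 5 libraries, or 4 averaged units, the smallest p the sign-flip test allows is above the threshold, so the counts of 0 in those settings do not show a lost order. Gsdme rests on 84 to 286 reads per library, which limits its precision.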
